A study of Mus musculus with 15 samples.

Results

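A group of 10 genes of the antioxidant and metal responses was followed across the study: the metallothioneins Mt1 and Mt2, the heme oxygenase Hmox1, the redox enzymes Srxn1, Txnrd1, Gsr and Nqo1, the glutathione synthesis genes Gclc and Gclm, and Nfe2l2, which encodes NRF2. They were chosen by symbol, with earlier results of these data known. All 10 were present among the 42396 genes of each deposited count table. The tibialis anterior, a fast muscle at the front of the lower hindlimb, was sampled from adult C57BL/6 mice given AAV6, an adeno-associated virus, in the hindlimb 2 months earlier. The virus carried LSMEM2 C-del in the tested mice, or EGFP, a fluorescent protein, in the mock controls, so every animal had received a virus and a foreign coding sequence. The groups were male C-del (4 libraries), male mock (4), female C-del (4) and female mock (3). What the C-del form lacks and which promoter drove it are not explained in the labels, nor are the ages in weeks or months. Each sex has its own table, and an effect of sex and an effect of the table cannot be told apart. Nothing in the labels says whether each library is a mouse of its own, so the p-values speak of how far these libraries vary, and that variation may be technical.

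NRF2 is a transcription factor that KEAP1 holds in the cytoplasm and marks for degradation. Oxidants and electrophiles loosen that hold, and NRF2 then pairs with small MAF proteins at antioxidant response elements, where BACH1 competes with it. Its targets make and recycle glutathione, feed the thioredoxin system and break down heme. Metallothioneins are small cysteine-rich proteins that bind zinc and copper, and MTF1, a zinc-sensing factor, glucocorticoids and oxidants all raise their transcription.

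The library totals were 14297600 to 17744000 counts in males and 9285140 to 12054900 in females. The labelled transgene matched in every library: Lsmem2 had 481 to 2355 CPM (counts scaled to the size of the library) in male C-del and 28.5 to 29.7 CPM in male mock libraries, and 1361 to 2705 CPM in female C-del and 30 to 32.8 CPM in female mock libraries. The extraction protocol in the labels names hearts while the samples are labelled skeletal muscle. The summed skeletal muscle markers stood at 103602 to 144305 CPM and the summed heart markers at 8.11 to 30.3 CPM over the 15 libraries. Some libraries stood apart in other cell types. The 31 leukocyte and macrophage markers summed to 230 and 257 CPM in male C-del libraries 1 and 2, and to 1285 and 394 CPM in female mock libraries 2 and 3. In the other 11 libraries the sum was 71.9 to 145 CPM. The fibroblast and tendon markers summed to 1048 to 1369 CPM in male C-del libraries and to 1166 to 2549 CPM in male mock libraries. The erythroid markers summed to 1288 and 1130 CPM in male C-del libraries 1 and 3, to 554 and 603 CPM in libraries 2 and 4, and to 433 to 623 CPM in male mock libraries. Satellite cell markers summed to 21.8 to 24.6 CPM in male C-del and 17.4 to 20.2 CPM in male mock libraries. Endothelial markers summed to 543 to 588 CPM in female C-del and 462 to 473 CPM in female mock libraries. Their part in the results was not tested. In bulk RNA, a change in the number of cells of a type and a change in RNA per cell cannot be told apart.

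Mt1 and Mt2 lie next to each other on mouse chromosome 8 (GRCm38.p6), Mt2 at chr8:94172618-94173567 and Mt1 at chr8:94178883-94180327, in a cluster that also holds Mt3 and Mt4. Their main transcripts, of 549 and 511 bases, share no identical run longer than 20 bases. RefSeq promoter windows (GRCm38.p6) were found for 7 of the 10 genes, in 9 windows. The windows of Mt2 and Srxn1 are shown because these genes differed between C-del and mock males and hold the most matches, beside the stretch of the Mt1 window that holds its match. Capitals mark matches on either strand to 3 short motifs: TGACNNNGC or TGAGNNNGC, the core of the antioxidant response element; TGCACNC or TGCGCNC, the core of the metal response element; and TGANTCA, the AP-1 core, which overlaps the first. All are on the plus strand, 5′ to 3′, at chr8:94172368-94172617 (Mt2), chr2:152105274-152105515 (Srxn1) and chr8:94179055-94179084 (Mt1). The Mt1 stretch lies inside the Mt1 interval given above. Its window begins at chr8:94178839 and, unlike the Mt2 window, is not wholly upstream of the gene start, so their counts are not on like windows.
Mt2: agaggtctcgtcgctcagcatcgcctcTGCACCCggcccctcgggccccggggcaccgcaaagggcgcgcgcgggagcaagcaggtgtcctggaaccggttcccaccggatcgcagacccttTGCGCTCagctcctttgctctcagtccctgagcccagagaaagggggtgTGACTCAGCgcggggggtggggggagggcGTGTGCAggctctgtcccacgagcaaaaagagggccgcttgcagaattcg
Srxn1: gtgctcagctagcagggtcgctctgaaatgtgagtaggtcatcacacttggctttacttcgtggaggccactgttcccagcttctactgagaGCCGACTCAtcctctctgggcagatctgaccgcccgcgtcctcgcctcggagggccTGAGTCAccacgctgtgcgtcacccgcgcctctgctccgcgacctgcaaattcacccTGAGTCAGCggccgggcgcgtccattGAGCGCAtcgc
Mt1: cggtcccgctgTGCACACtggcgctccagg
The 250 bases before the Mt2 start held 3 metal response cores, 1 antioxidant response core and 1 AP-1 core within it, the Srxn1 window 2 antioxidant response cores, 1 metal response core and 2 AP-1 cores, and the Mt1 window 1 metal response core. Among all 32851 promoter windows of that length, 23% held an antioxidant response core in either spelling and 10.2% in the first spelling alone, 21.4% held a metal response core and 6.75% an AP-1 core. The second spelling of the antioxidant core was added after these windows had been read. In the first spelling alone the Srxn1 window held 0 antioxidant response cores and the Mt2 window held 1. Among the members not shown, Gclm held 1 antioxidant response core and 2 metal response cores. Nfe2l2 held 1 antioxidant response core, as did 1 of the Txnrd1 windows. Nqo1 held 0 matches to any of the motifs, and the Mt1 window held 0 antioxidant response cores. A match describes the letters only and is no evidence of binding.

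In males, the members with a passing change were all higher in C-del muscle. Mt2, Mt1, Srxn1 and Gclc rose, by 7.06-fold, 4.63-fold, 1.60-fold and 1.29-fold, and 0 of the 10 fell, at an adjusted p under 0.05 in edgeR's quasi-likelihood test. That is 4 of 10, where 5.8% of the 14543 genes tested passed as higher, 5.37% as lower and 11.2% in either direction. DESeq2 called these 4 and Hmox1, and 10.1% of all genes. At an unadjusted p under 0.05, 9 of the 10 were higher and 0 lower, against 13.1% and 12.9% of all genes. All 10 log2 fold changes were above 0, with a median of 0.29, against -0.0047 over all genes tested. The 10 genes were chosen with earlier results of these data known, so an excess over all genes is no independent support. Without male mock library 1 the count of passing members was 2, in a fit that called 1100 of 14710 genes. Without male C-del library 2 it was 6, in a fit that called 1211 of 14678 genes. The C-del libraries lay above all mock libraries for Mt1, Mt2, Hmox1 and Srxn1, as they did for 9.05% of all genes tested. In females 0 of the 10 passed, where 0.0141% of 14220 genes passed as higher and 0% as lower. At an unadjusted p under 0.05, 1 female member was lower (Hmox1) and 0 were higher, against 7.09% and 4.81% of all genes (11.9% in either direction). DESeq2 called the same 1 gene of 10 in females and 2.99% of all genes.

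**Figure D1:**
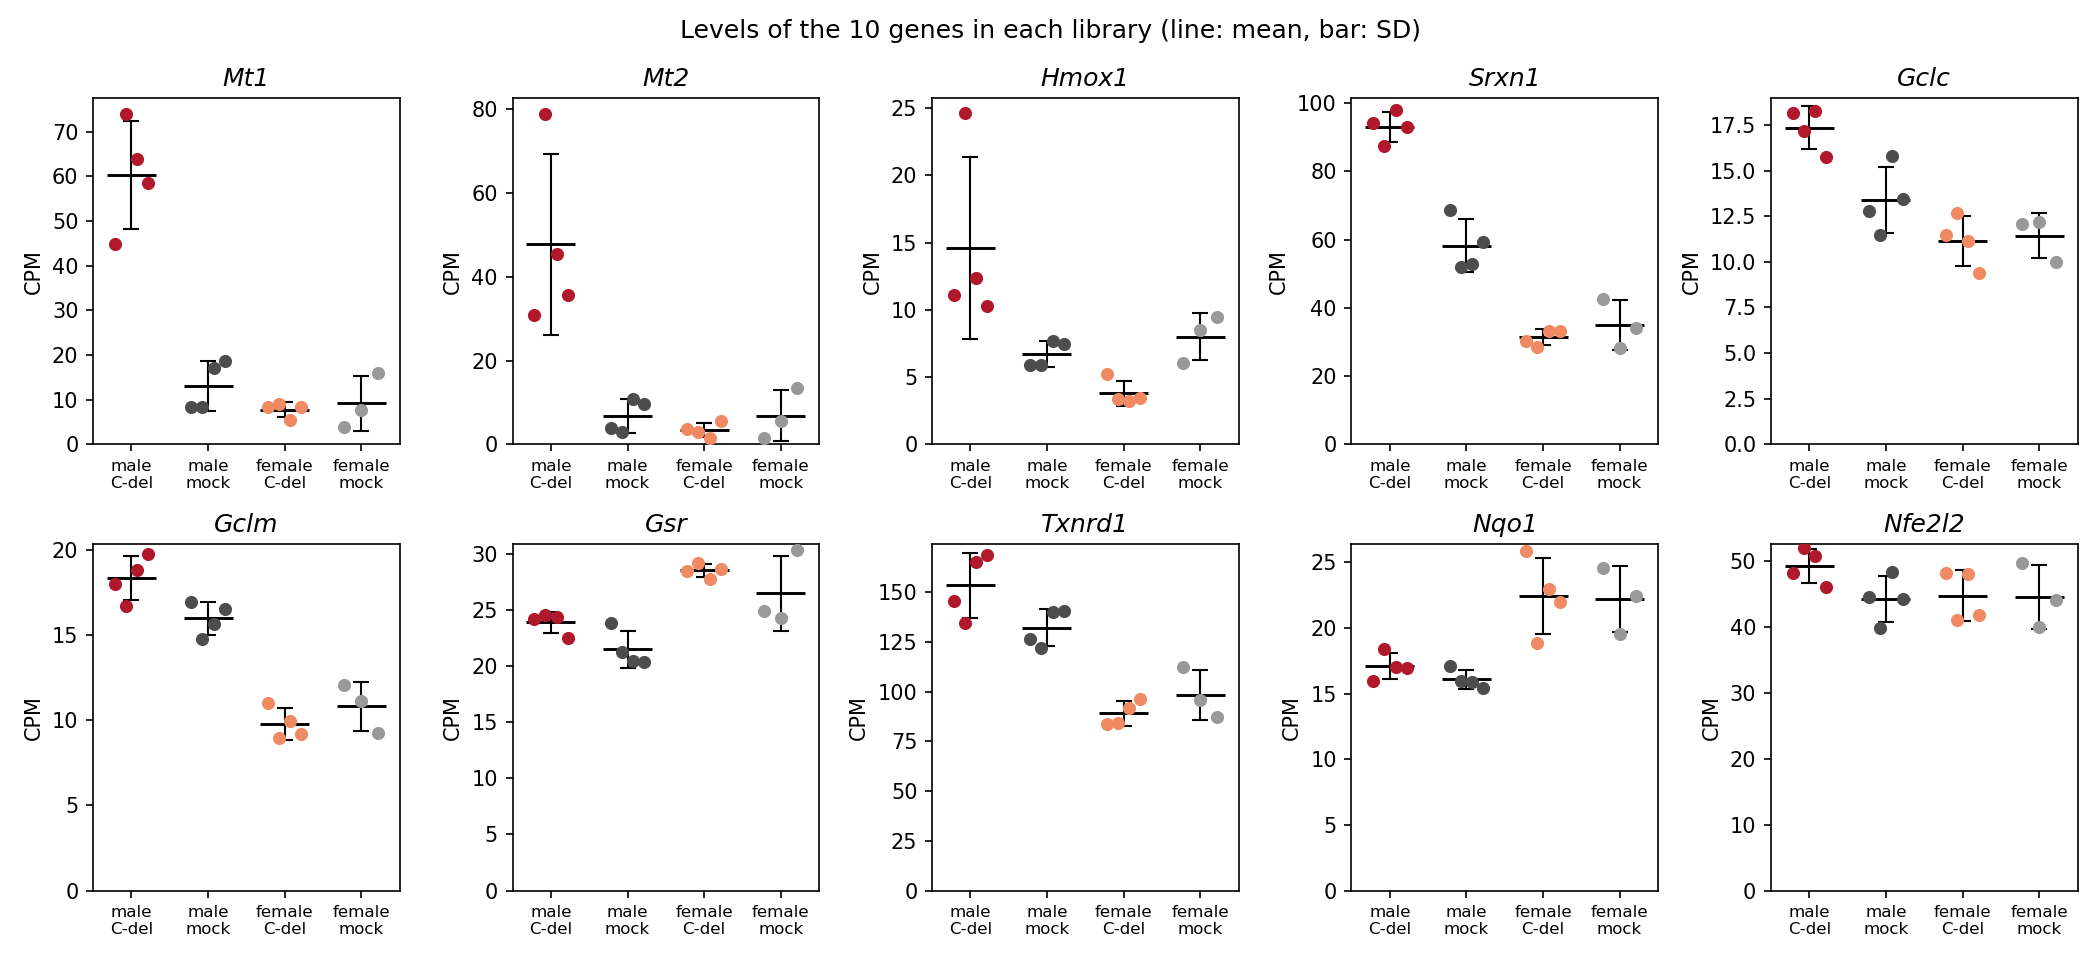
Level of each of the 10 genes in CPM (counts scaled to library size, y axis from 0) in the 15 libraries, by group on the x axis (male C-del, male mock, female C-del, female mock). Points are libraries, lines are means and bars are SD. Mt1 stands at 44.8 to 74 CPM in male C-del libraries and at or under 18.6 CPM in all others.

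The metallothioneins showed the largest fold changes of the 10 genes in males. Mt1 had 44.8, 74, 63.9 and 58.6 CPM in male C-del libraries 1 to 4, against 8.28, 8.25, 17.2 and 18.6 CPM in male mock libraries 1 to 4. Mt2 had 30.9, 78.8, 45.5 and 35.6 CPM in male C-del libraries, against 3.94, 2.82, 10.9 and 9.58 CPM in male mock libraries. For both genes every C-del library was above every mock library, and mock libraries 3 and 4 were above mock libraries 1 and 2. Mock libraries 3 and 4 also had the highest fibroblast and tendon marker sums, 2549 and 1857 CPM, against 1245 and 1166 CPM in mock libraries 1 and 2. The part of these cells in the metallothionein levels was not tested. The log2 fold change was 2.21 ± 0.32 for Mt1 (SE, adjusted p = 0.0088) and 2.82 ± 0.52 for Mt2 (adjusted p = 0.0209). Behind these stood 695 to 1306 Mt1 counts per library in male C-del and 123 to 268 in male mock muscle. The Mt2 call was lost without male mock library 1 (adjusted p = 0.0638) or 4 (0.0519), and without mock libraries 3 and 4, where the log2 fold change was 3.82 (adjusted p = 0.0660), or without C-del libraries 1 and 2 (2.58, adjusted p = 0.0701). The Mt1 call held under all 14 alternatives run in males (2.04 to 2.87). An antisense gene, Gm45774, overlaps Mt2 in GENCODE, and the use of strand in counting is not given in the sources used here.

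In females the metallothioneins were low in most libraries of both groups. Mt1 had 8.32, 9.01, 5.33 and 8.36 CPM in female C-del libraries, against 3.95, 7.72 and 16 CPM in female mock libraries. Mt2 had 3.67, 2.85, 1.44 and 5.54 CPM in female C-del libraries, against 1.43, 5.62 and 13.4 CPM in female mock libraries. The groups overlapped for both genes, with mock library 3 highest and mock library 1 lowest. The log2 fold change was -0.25 ± 0.40 for Mt1 (adjusted p = 0.830, 95% interval -1.15 to 0.66) and -1.02 ± 0.65 for Mt2 (adjusted p = 0.571, 95% interval -2.49 to 0.45). Mt1 counts were 36, 88 and 145 and Mt2 counts 13, 64 and 122 in female mock libraries 1 to 3. Without female mock libraries 2 and 3 the sign turned, to 0.97 for Mt1 (adjusted p = 0.396) and 1.22 for Mt2 (adjusted p = 0.738), with 1 mock library left.

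Mt2 counts per Mt1 count were 0.691, 1.06, 0.712 and 0.609 in male C-del libraries and 0.477, 0.341, 0.635 and 0.515 in male mock libraries. The ratio was 0.441, 0.316, 0.270 and 0.663 in female C-del libraries and 0.361, 0.727 and 0.841 in female mock libraries. In males 3 of the 4 C-del libraries exceeded every mock library, while the C-del library 4, at 0.609, lay under mock library 3; in females the groups overlapped. These ratios are a description with no test. The brain-linked Mt3 was low, at 0.903 to 3.23 CPM in male C-del and 0.323 to 0.903 CPM in male mock libraries (log2 fold change 1.53, adjusted p = 0.0596). Mt4 was at 0 CPM in male C-del, male mock and female C-del libraries, with a mean of 0.0292 CPM in female mock libraries.

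Hmox1, whose product opens the heme ring and releases iron, was higher in C-del than in mock libraries in males and lower in females, without passing in either sex. It had 11.1, 24.7, 12.4 and 10.3 CPM in male C-del libraries, against 5.88, 5.9, 7.71 and 7.43 CPM in male mock libraries. In females it had 5.19, 3.4, 3.21 and 3.43 CPM in C-del libraries, against 6.04, 8.51 and 9.46 CPM in mock libraries. Every male C-del library was above every male mock library, with library 2 far above the rest, and every female C-del library was below every female mock library, as 4.39% of genes tested in females were (groups did not overlap, either way, for 10.1%). The log2 fold change was 1.13 ± 0.33 in males (adjusted p = 0.0766) and -1.07 ± 0.23 in females (adjusted p = 0.152) in edgeR. DESeq2 gave adjusted p = 0.00957 in males and 0.0185 in females, and the male contrast passed in the fit of all 15 libraries (adjusted p = 0.0252). Without male C-del library 2 the male value was 0.74 and passed (adjusted p = 0.00232). Without female mock library 1 the female value was -1.26 and passed (adjusted p = 0.0102), in a fit where 1050 of 14706 genes passed.

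Macrophages express Hmox1, so their markers are given beside it. Summed leukocyte and macrophage markers were 230, 257, 76.8 and 98.3 CPM in male C-del libraries, against 97.7, 99.5, 93.5 and 114 CPM in male mock libraries. In females they were 145, 84.6, 76.3 and 71.9 CPM in C-del libraries, against 109, 1285 and 394 CPM in mock libraries. Of the 31 markers, 4 to 8 were at 0 in male C-del and 2 to 6 in male mock libraries, 4 to 9 in female C-del libraries, 7 in female mock library 1 and 0 in female mock libraries 2 and 3. Male C-del libraries 3 and 4, with marker sums of 76.8 and 98.3 CPM, had 12.4 and 10.3 CPM of Hmox1. Without male C-del libraries 1 and 2 the male log2 fold change was 0.75 (adjusted p = 0.00492). In females, leaving out mock libraries 2 and 3 gave -0.66 (adjusted p = 0.544). The part of leukocytes in the Hmox1 levels of either sex was not tested.

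**Figure D2:**
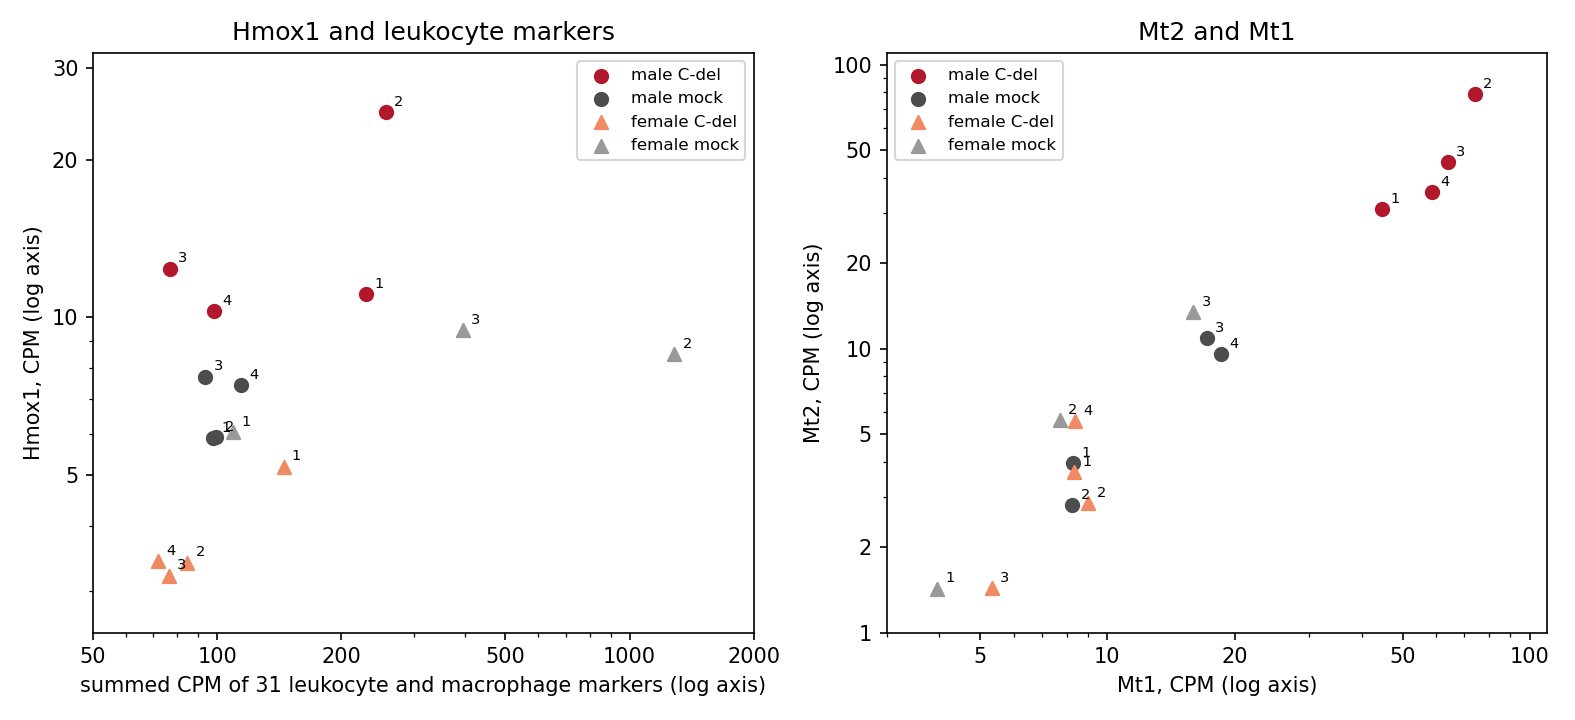
Left: Hmox1 in CPM (y, log axis) against the summed CPM of 31 leukocyte and macrophage markers (x, log axis). Right: Mt2 against Mt1, both in CPM on log axes. Points are the 15 libraries (circles male, triangles female, numbers are library numbers). Male C-del libraries 3 and 4 lie above all male mock libraries for Hmox1 at marker sums of 76.8 and 98.3 CPM. Male C-del library 2 has the highest male Hmox1 (24.7 CPM) and marker sum (257 CPM). Female mock libraries 2 and 3 have the highest female Hmox1 (8.51 and 9.46 CPM) and marker sums (1285 and 394 CPM). The part of leukocytes was not tested.

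Srxn1, the sulfiredoxin that repairs over-oxidised peroxiredoxins, had the smallest adjusted p of the 10 genes in males. It had 94.3, 87.4, 98 and 92.9 CPM in male C-del libraries, against 68.8, 51.9, 52.9 and 59.3 CPM in male mock libraries. The groups did not overlap, and the log2 fold change was 0.68 ± 0.079 (adjusted p = 1.49e-04). It passed under all 14 alternatives run in males, with values of 0.62 to 0.77. In females it had 30.4, 28.6, 33.2 and 33.3 CPM in C-del libraries, against 42.6, 28.3 and 34 CPM in mock libraries. These overlapped, and the log2 fold change was -0.15 ± 0.14 (adjusted p = 0.703, 95% interval -0.48 to 0.17).

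Txnrd1, the cytosolic thioredoxin reductase, had the highest level per kb of the genes other than the metallothioneins in all 4 groups. It had 146, 135, 165 and 169 CPM in male C-del libraries, against 127, 122, 140 and 140 CPM in male mock libraries. In females it had 83.8, 84.2, 92.1 and 96.4 CPM in C-del libraries, against 112, 95.8 and 87.1 CPM in mock libraries. The groups overlapped in both sexes, and the log2 fold change was 0.22 ± 0.073 in males (adjusted p = 0.0807) and -0.14 ± 0.11 in females (adjusted p = 0.646). The male value passed without C-del library 2 (0.28, adjusted p = 0.0169) and without C-del libraries 1 and 2 (0.34, adjusted p = 0.00372). The gene overlaps Eid3, Gm38560 and Gm47073, whose reads the deposited counts may share. Annotated genes also overlap Gclm (Gm46822, Gm6061 and Gm17494), Gsr (Gm17803 and Gm24727) and Nfe2l2 (Gm24996).

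Gclc and Gclm encode the catalytic and the modifier subunit of glutamate-cysteine ligase, the limiting enzyme of glutathione synthesis. Gclc had 18.2, 17.2, 18.3 and 15.8 CPM in male C-del libraries, against 12.8, 11.5, 15.8 and 13.5 CPM in male mock libraries. C-del library 4 and mock library 3 met near 15.8 CPM, so the groups overlapped, while the log2 fold change of 0.37 ± 0.094 passed (adjusted p = 0.0206). That call was lost in 5 of 14 alternatives: the fit of all 15 libraries (adjusted p = 0.0867), without C-del libraries 1 and 2 (0.0988), and without mock library 1, mock library 2 or C-del library 1 (0.0570 to 0.0592). Gclm had 18, 16.7, 18.8 and 19.8 CPM in male C-del libraries, against 16.9, 14.8, 15.6 and 16.5 CPM in male mock libraries, with a log2 fold change of 0.20 ± 0.075 (adjusted p = 0.107). In females the subunits had 9.37 to 12.7 CPM (Gclc) and 8.92 to 11 CPM (Gclm) in C-del libraries, against 10 to 12.2 CPM and 9.24 to 12.1 CPM in mock libraries. Their female log2 fold changes were -0.034 ± 0.15 for Gclc (95% interval -0.37 to 0.30) and -0.15 ± 0.15 for Gclm (95% interval -0.48 to 0.19).

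Gsr, which returns oxidised glutathione to its reduced form, had 22.6 to 24.5 CPM in male C-del and 20.4 to 23.9 CPM in male mock libraries. In females it had 27.8 to 29.2 CPM in C-del and 24.3 to 30.4 CPM in mock libraries. The log2 fold changes were 0.15 ± 0.067 in males (adjusted p = 0.163) and 0.11 ± 0.11 in females (adjusted p = 0.726). Nqo1, a quinone reductase often read as the standard NRF2 target, had 16 to 18.4 CPM in male C-del and 15.4 to 17.1 CPM in male mock libraries, and 18.9 to 25.9 CPM in female C-del and 19.6 to 24.6 CPM in female mock libraries. Its log2 fold changes were 0.089 ± 0.070 in males (adjusted p = 0.466, 95% interval -0.061 to 0.24) and 0.016 ± 0.14 in females (adjusted p = 0.972, 95% interval -0.29 to 0.32). Nfe2l2 itself had 46.1 to 52 CPM in male C-del and 39.9 to 48.4 CPM in male mock libraries, with a log2 fold change of 0.15 ± 0.064 (adjusted p = 0.142). In females it had 41 to 48.2 CPM in C-del and 40 to 49.7 CPM in mock libraries (log2 fold change 0.0061 ± 0.12, adjusted p = 0.988). NRF2 is controlled largely through protein stability, which RNA levels do not show.

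**Figure D3:**
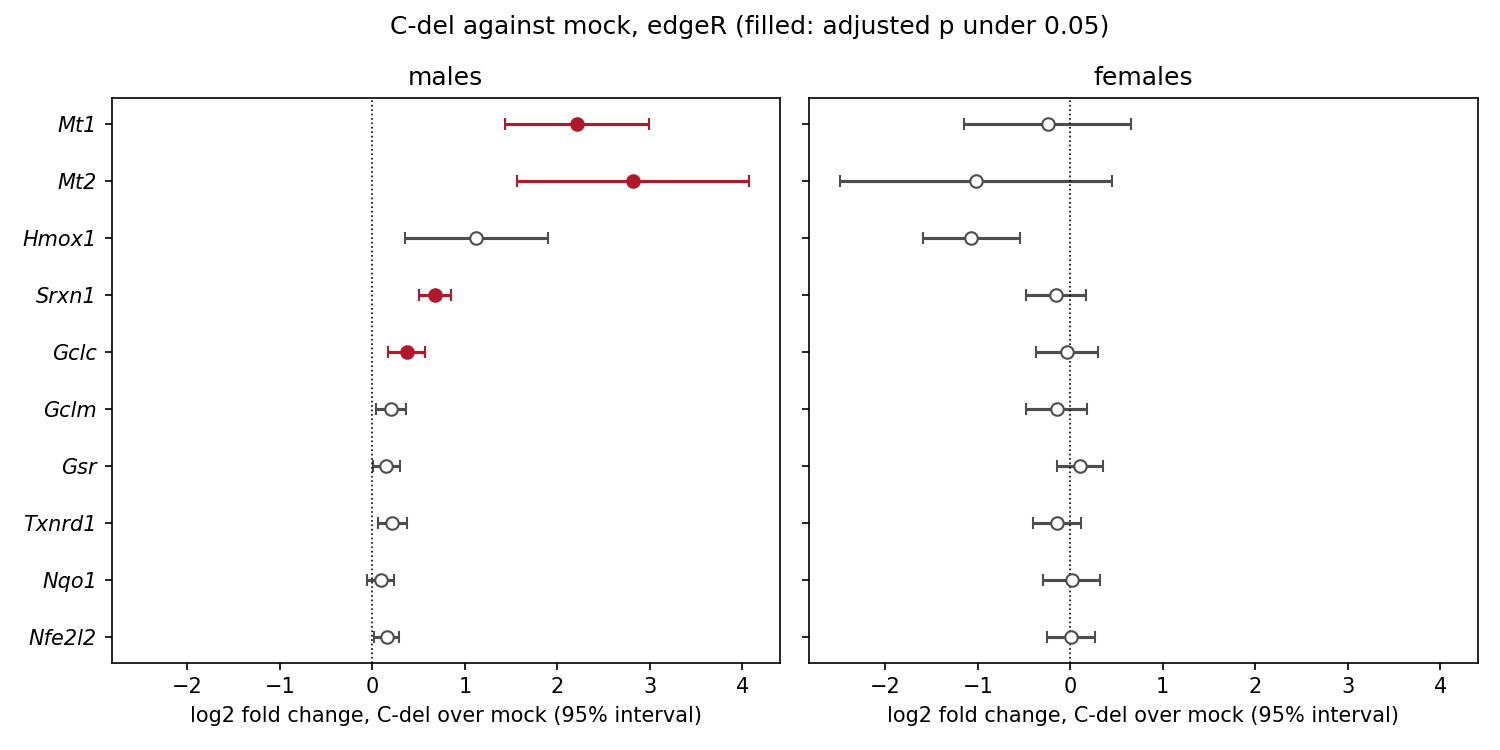
Log2 fold change of C-del over mock (x axis) for the 10 genes (y axis) in males (left) and females (right), with edgeR's 95% interval as bars; filled points have an adjusted p under 0.05. Mt1, Mt2, Srxn1 and Gclc are filled in males, 0 genes are filled in females, and Hmox1 lies at 1.13 in males and -1.07 in females.

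Per length of the principal transcript, the order of the levels changed between groups in both sexes. In females the change lay below Txnrd1 and Nfe2l2, with Mt2 at rank 7 in C-del and 5 in mock muscle. Female Mt2 had 6.60 ± 3.35 CPM per kb in C-del (SD, n = 4) and 13.35 ± 11.9 in mock muscle (SD, n = 3). These means differed by less than the SD of the mock libraries. In male C-del muscle Mt1 led with 110 ± 22.2 CPM per kb, then Mt2 with 93.4 ± 42.2 and Txnrd1 with 43.5 ± 4.61 (SD, n = 4). In male mock muscle Txnrd1 led with 37.5 ± 2.64 CPM per kb, then Mt1 with 23.8 ± 10.2 and Srxn1 with 20.7 ± 2.76 (SD, n = 4). Mt1 and Mt2 in male C-del muscle differed by less than either SD, and Mt1 and Srxn1 in male mock muscle by less than the SD of Mt1 but more than that of Srxn1. In female C-del muscle Txnrd1 led with 25.2 ± 1.74 CPM per kb before Nfe2l2 with 18.1 ± 1.57 (SD, n = 4), and in female mock muscle the same pair had 27.9 ± 3.62 and 18 ± 1.97 (SD, n = 3). Gclm was the lowest in all 4 groups, at 3.28 ± 0.231 in male C-del, 2.86 ± 0.174 in male mock, 1.75 ± 0.168 in female C-del and 1.94 ± 0.258 in female mock muscle.

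Whether the C-del effect differed between the sexes was tested as the female minus the male log2 fold change in a fit of all 15 libraries. Hmox1 and Srxn1 passed, both as lower in females: -2.20 ± 0.40 for Hmox1 (adjusted p = 0.0412) and -0.83 ± 0.17 for Srxn1 (adjusted p = 0.0460). That is 2 of 10, where 0.183% of 15272 genes tested passed as lower and 0.354% in either direction. Mt1 and Mt2 had larger differences, of -2.46 ± 0.56 (adjusted p = 0.0712) and -3.85 ± 0.92 (adjusted p = 0.0773), that did not pass in edgeR and passed in DESeq2 (adjusted p = 7.85e-04 and 0.00541). Without female mock libraries 2 and 3 they were -1.25 and -1.62 (adjusted p = 0.689 and 0.856). DESeq2 called 4 of 10 and 3.93% of all genes. At an unadjusted p under 0.05, 7 of 10 differences were lower, against 9.76% of all genes. All 10 differences were below 0, with a median of -0.39, against -0.015 over all genes tested. Here too the 10 genes had been chosen with earlier results of these data known. With 1 library left out at a time, Hmox1 passed in 6 of 15 fits (-1.82 to -2.38, adjusted p = 0.00208 to 0.102). It did not pass without any of the 4 male mock libraries, male C-del library 3, female mock library 3, or female C-del library 2, 3 or 4. Srxn1 passed in 3 of 15 such fits, those without male mock library 1, female mock library 1 or female mock library 2 (-0.66 to -0.96 over the 15, adjusted p = 0.0103 to 0.114). Without female mock library 1 all of Hmox1, Srxn1, Mt1 and Mt2 passed, in a fit that called 1817 of 15791 genes, against 54 of 15272 with all libraries. The Hmox1 call was lost without female mock libraries 2 and 3 (-1.79, adjusted p = 0.343) and without male mock libraries 3 and 4 (-2.37, adjusted p = 0.128). The Srxn1 call held without those female libraries (-1.12, adjusted p = 0.00340) and was lost without male mock libraries 3 and 4 (-0.77, adjusted p = 0.217) or male C-del libraries 1 and 2 (-0.86, adjusted p = 0.158).

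In the average of both sexes 0 of 10 genes passed in edgeR, where 4.41% of genes tested passed, 2.42% as higher and 1.99% as lower. At an unadjusted p under 0.05, 3 genes were higher and 0 were lower, against 8.89% and 10.8% of all genes (19.7% in either direction). DESeq2 called 2 in the average, Mt1 (0.99, adjusted p = 0.00368) and Srxn1 (0.27, adjusted p = 0.0483), where it called 6.8% of all genes. In edgeR, Srxn1 passed without female mock library 1 (0.35, adjusted p = 0.00651), and Mt1 and Gsr passed without female mock library 3 (1.30 and 0.19, adjusted p = 0.0211 and 0.0318). Calls over all genes rose in the same fits, to 2085 of 15791 and 998 of 15536, against 673 of 15272 with all libraries.

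Of 13 genes that control NRF2, all tested, 3 rose and 1 fell in males, and the median log2 fold change was 0.092. Over all genes tested in males, 5.8% passed as higher and 5.37% as lower. Maff, a small MAF partner, rose 1.82-fold (5.29, 5.44, 5.36 and 5.7 CPM in C-del libraries, against 2.65, 3.02, 3.48 and 2.85 CPM in mock libraries, adjusted p = 5.28e-04). The groups of Maff did not overlap in males, nor did those of 17.6% of all genes tested in males. Trim16 rose 1.21-fold and Sqstm1, whose product binds KEAP1, rose 1.15-fold, while Gsk3b, a kinase that marks NRF2 for degradation, fell by 0.16 on the log2 scale (adjusted p = 0.0455). Keap1 had a log2 fold change of 0.14 ± 0.054 (adjusted p = 0.125), Bach1 0.17 ± 0.068 (adjusted p = 0.131), Mafg 0.068 ± 0.048 (adjusted p = 0.406) and Mafk 0.092 ± 0.066 (adjusted p = 0.415). In females 0 of 13 passed, an unadjusted p under 0.05 was reached by 3 as higher and 0 as lower, and DESeq2 called 1. Over all genes in females, 4.81% were higher and 7.09% lower at that unadjusted p, and DESeq2 called 2.99%.

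Other genes linked to NRF2 moved in both directions in males: of 27 tested, 2 rose and 2 fell, with a median of 0.017. Aox1, an aldehyde oxidase, rose 1.61-fold and Ftl1, the ferritin light chain, rose 1.36-fold, while the glutathione transferases Gstm1 and Gstm2 fell by 0.33 and by 0.70 on the log2 scale. Of 26 glutathione enzymes tested, 2 rose (Mgst1, 1.26-fold, and Glrx, 1.23-fold), 1 fell (Gstk1, by 0.25 on the log2 scale) and the median was 0.057. Of 23 thioredoxin, peroxiredoxin and superoxide dismutase genes, 2 rose (Msrb1, a methionine sulfoxide reductase, 1.34-fold, and Txn2, the mitochondrial thioredoxin, 1.12-fold) and 3 fell (Sesn1, Sesn3 and Msrb3, by 0.48, 0.52 and 0.20), with a median of -0.026. These medians stand against -0.0047 over all genes tested, of which 5.8% passed as higher and 5.37% as lower in males. In females 0 genes of these 3 lists passed. At an unadjusted p under 0.05, 0 of 27, 0 of 26 and 1 of 23 were higher and 7, 2 and 2 were lower, and DESeq2 called 1, 1 and 0. Over all genes in females, 4.81% were higher and 7.09% lower at that unadjusted p, and DESeq2 called 2.99%.

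Among 23 zinc and copper handling genes tested in males, 3 rose and 1 fell, with a median of -0.0070. Over all genes tested in males, 5.8% passed as higher and 5.37% as lower. The zinc transporters Slc30a2 and Slc39a14 each rose 1.52-fold and Mtf1, the metal-sensing activator of metallothionein genes, rose 1.17-fold (adjusted p = 0.0215), while Slc39a10 fell by 0.48 on the log2 scale. Of 19 heme and iron genes, 2 rose (Ftl1, 1.36-fold, and Alas1, the first enzyme of heme synthesis, 1.29-fold) and 0 fell, with a median of 0.061. Of 18 genes induced by glucocorticoids, a hormone class that also raises metallothioneins, 9 rose and 0 fell in males, with a median of 0.29. Ddit4 rose 4.91-fold, Cebpd 2.31-fold, Fkbp5 2.14-fold, Errfi1 1.78-fold, Per1 1.61-fold and Tsc22d3 1.56-fold. A part of glucocorticoids in the metallothionein levels was not tested. In females 0 genes of these 3 lists passed, with 0 of 23, 0 of 19 and 5 of 18 higher and 2, 2 and 0 lower at an unadjusted p under 0.05, and DESeq2 called 0, 1 and 5. Over all genes in females, 4.81% were higher and 7.09% lower at that unadjusted p, and DESeq2 called 2.99%. In the average of the sexes, 3 of 13 genes that control NRF2 rose (Trim16, Nfe2l1 and Maff, by 0.27, 0.24 and 0.53 on the log2 scale). Of 28 other NRF2-linked genes, 2 rose (Aox1 and Cat) and 2 fell (Gstm1 and Gstm2), and of 26 glutathione enzymes 0 passed (unadjusted p under 0.05 for 0 as higher and 3 as lower, 0 called in DESeq2). Of 23 thioredoxin, peroxiredoxin and superoxide dismutase genes 1 fell (Sesn1), of 23 zinc and copper genes 3 rose (Mtf1, Slc30a2 and Slc39a14), and of 19 heme and iron genes 1 rose (Alas1). Of 18 genes induced by glucocorticoids 7 rose, Ddit4, Errfi1, Per1, Cebpd and Tsc22d3 among them. Over all genes in the average, 2.42% passed as higher and 1.99% as lower. At an unadjusted p under 0.05 the shares were 8.89% and 10.8%, and DESeq2 called 6.8%. Of these lists, the sexes differed for Ftl1 (-1.23 ± 0.23, adjusted p = 0.0434), Gpx1 (-1.03 ± 0.20, adjusted p = 0.0460), Cebpd (-1.23, adjusted p = 0.0450) and Ddit4 (-2.06, adjusted p = 5.80e-04). The sexes differed for 0.354% of all genes tested. Macrophages hold Ftl1 as well, and its levels were not separated from the marker sums given above.

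The genes most like each of the 10 were found by the mean absolute difference, over 15 libraries, of log2(CPM + 1) less its mean within each table, among 9815 genes. Mt1 was the gene most like Mt2 (0.336), before Ccl9 (0.570) and Ddit4 (0.593). Ddit4 (0.358), Dnajb1 (0.408) and Klf2 (0.429) were nearest to Mt1 among these genes. Mt2 could not be listed for Mt1, since its female mean lay under the 5 CPM that a listed gene needed, although its distance of 0.336 is smaller. Dnajb1 encodes a heat shock co-chaperone and Klf2 a transcription factor, and both rose in males (3.21-fold and 2.42-fold). Ftl1 (0.213), Gpx1 (0.245) and S100a10 (0.251) were most like Hmox1. Noct (0.0994), Thpo (0.113) and Cd24a (0.114) were most like Srxn1, and all 3 rose in males (1.33-fold, 1.56-fold and 1.35-fold). For the other 6 genes, which varied less, the nearest were Rabepk (Gclc), Exd2 (Gclm), Sf3b1 (Txnrd1), Psmd3 (Gsr), Foxred1 (Nqo1) and C330018D20Rik (Nfe2l2), at 0.0457 to 0.0888. Likeness here describes shared levels across these libraries, which share sex, treatment and table.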

How the data were processed

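RNA-seq of 15 mouse muscle libraries was used. The deposited values are expected counts per gene, estimated counts that need not be whole, with 14.6% to 17.3% of values per library not whole within 0.001; all 150 values of the 10 genes were whole. Per the submitters' processing notes, featureCounts 2.0.0 and GRCm38.p6 were used. Not given in the sources used here are the aligner, the counting options and whether strand was used. CPM were scaled with TMM library sizes. The test planned was for whole counts, and each value was rounded before it. Female columns carry the title numbers and male columns match by group alone.

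Genes were kept by filterByExpr (minimum count 10), scaled by TMM and tested with edgeR 4.0.16's robust quasi-likelihood test (R 4.3.3, limma 3.58.1) with Benjamini-Hochberg adjustment over all genes tested, at 0.05. Each sex was fitted alone. The average and the difference came from a fit of 15 libraries. Intervals of 95% are t-based, and cover no more than the spread between libraries. DESeq2 1.42.0, another scaling, no filter, a replicate block, and fits without a library or without libraries that stood apart were alternatives. The pseudocount was 1. Scripts were tested on simulated data. Levels per kb use the longest principal transcript in GENCODE (GRCm38); promoter sequences are RefSeq's. Plots used Python 3.11.15 and matplotlib 3.10.9.

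The 10 genes and all lists were chosen with earlier results of these data known. By rule, the text names the 10 genes, Lsmem2, up to 6 passing genes per list by smallest p, fixed regulators (Keap1, Bach1, Mafg, Mafk, Maff, Mtf1, Mt3), and the 3 genes most like each member among genes with a mean of at least 5 CPM in each table. Mt4 was named after its values were seen.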

Additional observations from a re-analysis of the deposited data

Results flagged for a closer look

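Hmox1 in male C-del library 2 stood far above the other 3 libraries of its group, at 24.7 CPM. Hmox1 in female C-del library 1, at 5.19 CPM, stood above the other 3 of its group. Chance flags about 1 in 20 groups this way, and 30 groups of 4 were looked at for the 10 genes. Both libraries also had the highest leukocyte and macrophage marker sum of their group, 257 CPM in male C-del library 2 and 145 CPM in female C-del library 1. Male C-del library 1, with a sum of 230 CPM, had 11.1 CPM of Hmox1, and library 3, with 76.8 CPM, had 12.4 CPM. Male C-del library 2 was also the highest of its group for Lsmem2 (2355 CPM), Mt1 (74 CPM) and Mt2 (78.8 CPM). Female C-del library 1 had the lowest Lsmem2 of its group (1361 CPM). The part of these cells, and of the Lsmem2 level, was not tested. The C-del effect differed between females and males for Hmox1, by -2.20 on the log2 scale, and for Srxn1, by -0.83, each by a test of the difference itself in edgeR. Sex and table cannot be told apart in these differences.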

How the results depend on the processing

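The count of passing genes among the 10 kept its value within 1.5 times under 43 of 69 alternatives. For males (4) it was 2 to 6 with 1 library left out; for females (0) it was 0 to 1, and 1 with DESeq2. For the average (0) it was 0 to 2, 2 with DESeq2, and 1 without male mock libraries 3 and 4. For the difference (2) it was 0 to 4, 4 with DESeq2, 1 with no filter on low counts, 1 without female mock libraries 2 and 3, 0 without male mock libraries 3 and 4, and 1 without male C-del libraries 1 and 2. Fits without those library pairs were added after seeing the data. Over all genes, the females' 2 passing genes became 512 with DESeq2, 16 with no filter, 777 in the fit of all 15 libraries, 4 without female mock libraries 2 and 3, and 1 to 1050 with 1 library left out (1050 without mock library 1). The males' 1624 became 767 without male mock libraries 3 and 4, and 380 when all 15 libraries were fitted. With 1 library left out it was 1100 to 1526. The average's 673 became 1083 with DESeq2, 218 and 192 without the male mock and male C-del pairs, and 368 to 2085 with 1 library left out. The difference's 54 became 666, 6, 9 and 10 to 1817 under these settings. The cause was not tested.

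Of 690 fold changes, 604 kept direction and side of the threshold, 18 newly passed, 35 no longer passed and 33 changed sign, 0 of them in males. In females, with 1 library left out, Gclc was -0.12 to 0.036, Srxn1 -0.29 to 0.015, Nqo1 -0.069 to 0.097, Nfe2l2 -0.068 to 0.092 and Mt1 -0.60 to 0.39. Without female mock libraries 2 and 3, Nqo1 was -0.13, Nfe2l2 -0.15, Mt1 0.97 and Mt2 1.22 in females, Nqo1 -0.025, Gclm -0.056, Txnrd1 -0.062 and Nfe2l2 -0.0013 in the average, and Gsr 0.039 in the difference. Gsr was 0.036 in the difference without male mock libraries 3 and 4, and Hmox1 -0.16 in the average without male C-del libraries 1 and 2. With 1 library left out, the average was -0.16 to 0.097 for Hmox1 and -0.017 to 0.074 for Gclm, and the difference -0.16 to 0.015 for Nqo1 and -0.10 to 0.068 for Gsr. None of these sign changes involved a value that passed.

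The labels do not say whether replicate numbers pair the female libraries. After removal of group means, same-numbered libraries correlated at -0.13, -0.0081 and -0.041. Differently numbered libraries correlated at -0.21 to 0.22. With so few libraries, whose deviations cancel within each group, these values cannot decide whether the numbers pair them. With a replicate block 0 of the 10 genes passed, and Gclc was 0.045. Where a fit leaves 1 mock library, it is assumed to vary like the others. Female Mt2 counts reached down to 13, and female metallothionein values also turned with the mock libraries used.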
